A study of Homo sapiens with 21 samples.

Results

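The genes described here are 5 members of the BCL2 family, BCL2, BCL2L1, MCL1, BCL2L11 and BAX, and the measurement is RUNX1 binding around them in the human T-cell leukaemia cell line Jurkat. Members were chosen by position. A peak counted when its summit lay in the hg19 window of a gene, which runs from about 10 kb before to about 10 kb after it. The windows together span 421 kb and hold 87 of the 190855 binding regions of the series. A region is the merged stretch of 100 bp on each side of the summits of all lists, and a list has a region when a summit of that list falls in it. BCL2 had 26 regions, BCL2L1 34, MCL1 7, BCL2L11 14 and BAX 6, made of 333 peaks.

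The study asked where mutant and wild-type RUNX1 bind in the same cells. Untreated single clones carried a knocked-in RUNX1 mutation, R232fs (a frameshift), Y287X (a stop codon) or G365R (a change of 1 amino acid), with 2 clones of each, or wild-type RUNX1 in 1 clone. Anti-HA chromatin immunoprecipitation recovered the mutant protein of the mutant clones, and anti-TY1 the wild-type protein of the same clones. Both tags were on wild-type RUNX1 in the WT clone. Each clone gave 1 HA and 1 TY1 peak list, 14 in all. The label of each clone stands for 1 selected cell line, so a clone's own traits are part of its values, and WT has no replicate. R232fs and Y287X are called truncating below.

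BCL2 family proteins set the threshold of mitochondrial cell death. BCL2, BCL2L1 and MCL1 hold that pathway in check, BCL2L11 (BIM) is a BH3-only protein that binds and neutralises such inhibitors, and BAX is an effector that opens the outer mitochondrial membrane. In developing T cells BCL2L11 takes part in the death of self-reactive thymocytes, and BCL2 family inhibitors are drug targets in leukaemia. RUNX1 binds DNA and controls transcription during the formation of blood cells.

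List length ran from 30563 to 86433 peaks (chromosomes 1 to 22 and X only). R232fs HA lists had 77691 and 86433 peaks and R232fs TY1 lists 40112 and 59140. Y287X HA lists had 51892 and 67594 and Y287X TY1 lists 49749 and 81561. G365R HA lists were the shortest, with 30609 and 30563, and G365R TY1 lists had 57378 and 61793. The WT clone had 37472 HA and 59452 TY1 peaks. In 12 lists fold and p-value together gave back whole-number summit pileups (fragments over the summit), whereas in the first G365R TY1 list and the WT TY1 list they did not, so no pileup is given for those 2. The lists of the truncating clones stood apart from the rest at their strong end. Their highest −log10 p was 2673 to 5706, against 513 to 665 in G365R and WT lists, and the highest summit among their 200 peaks of lowest p held 2367 to 5993 fragments, against 441 to 472 where whole pileups were given. The labels give no reason for this. The read depth of the libraries is not part of the lists.

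Regions were denser around these genes than over the chromosomes, at 20.7 against 6.29 per 100 kb. The second value covers the chromosomes up to their last summit, with stretches that hold no gene. Windows around other genes were not counted, so whether the density is particular to this family was not tested. BCL2L1 had 42.5 regions per 100 kb, MCL1 26.9, BAX 21.4, BCL2L11 20.3 and BCL2 11.9, so each of the 5 windows lay above the chromosome-wide value. With every list reduced to its 30563 peaks of lowest p, BCL2 kept 10 regions, BCL2L11 9, BCL2L1 8, BAX 2 and MCL1 1. The order of the genes by count thus changed with list length, and densities at equal length were not computed. Of the 87 regions 6 were in all 14 lists (6.90%, against 5.92% of all regions), 2 each at BCL2, BCL2L1 and BAX and none at MCL1 or BCL2L11. A single list held 43 of them (49.4%, against 42.3%), and 46 were in truncating clones only (52.9%, against 52.4%). In G365R and WT lists only there were 15 (17.2%, against 13.2%). The members were spread over the lists much as all regions were.

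**Figure D1:**
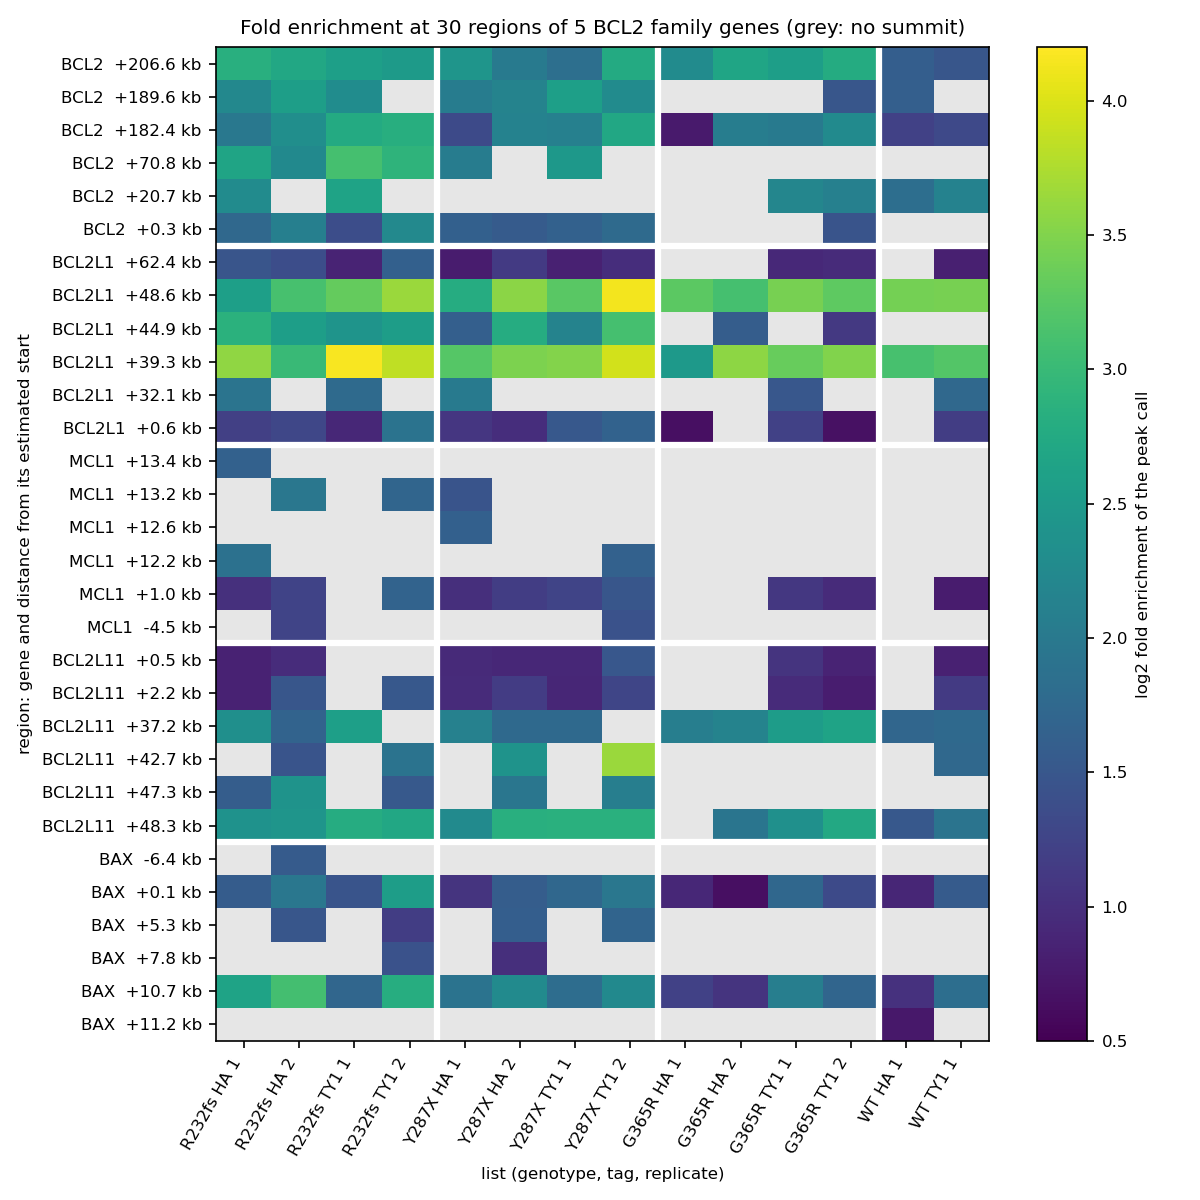
Fold enrichment (log2 colour scale) of the 30 named regions, in rows by gene and distance from the estimated gene start in kb, in the 14 lists, in columns by genotype, tag and replicate; grey means no summit in that list. The BCL2L1 rows at +48.6 and +39.3 kb are filled in all 14 lists and hold the highest folds, while the rows near starts are mostly dark.

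The number of member regions in a list followed the list's length. R232fs HA lists had 42 and 37 of the 87 regions and R232fs TY1 lists 19 and 22. Y287X HA lists had 26 and 25 and Y287X TY1 lists 21 and 32. G365R HA lists had 9 and 12, against 24 in each G365R TY1 list, and the WT clone had 15 with HA and 24 with TY1. Per 10000 peaks of the list the lowest value was 2.94, in the first G365R HA list, and the highest 5.41, in the first R232fs HA list. With every list reduced to its 30563 strongest peaks the counts ran from 13 to 15 in the 8 truncating lists and from 6 to 12 in the 6 lists of G365R and WT. At equal length R232fs HA lists had 13 each and R232fs TY1 lists 14 each, so the excess of HA regions in R232fs was not seen there.

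**Figure D2:**
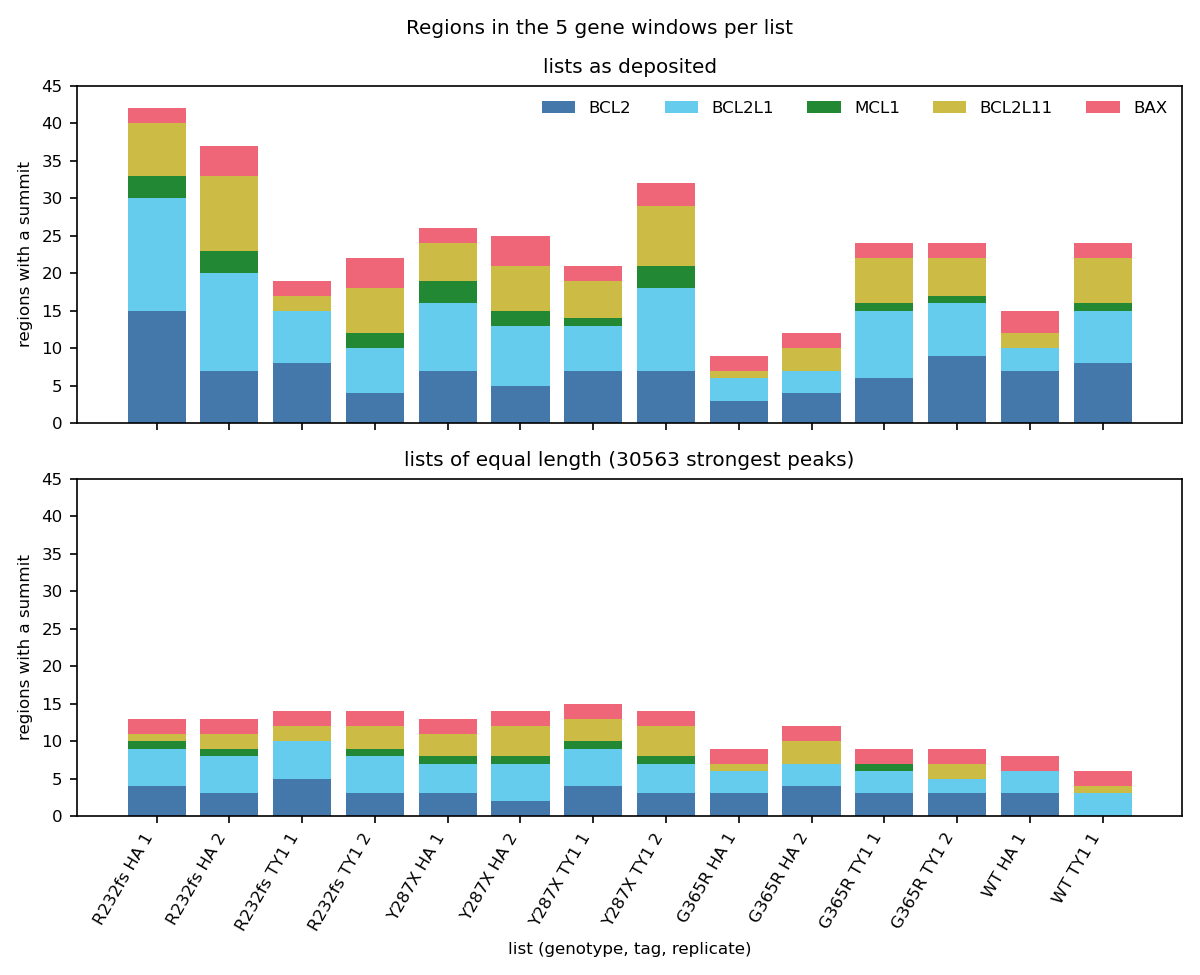
Stacked bars give the number of regions with a summit in each gene window, per list, as deposited (top) and with each list reduced to its 30563 strongest peaks by p (bottom). The bars run from 9 to 42 regions above and from 6 to 15 below.

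Tag-specific patterns were few among the 87 regions. Both G365R TY1 lists and neither G365R HA list held 6 regions (6.90%, against 7.85% of all regions), at MCL1, BCL2L11, BCL2 and BCL2L1. The WT clone, where both tags mark wild-type RUNX1, had 13 regions with TY1 and not HA (14.9%, against 14.8%) and 4 with HA and not TY1 (against 3.33%). In R232fs 1 region was found with HA in both clones and with TY1 in none (1 of 87, against 3.98% of all regions), near the start of BCL2L11. In Y287X 2 regions were found with TY1 in both clones and with HA in none (against 1.2%), and 0 showed the opposite pattern (against 0.679%).

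At BCL2, the founding anti-apoptotic member, the 2 regions present in all lists lay far from the gene's start. The first, on chromosome 18 at 60781272 to 60781632, is 206.6 kb from the estimated start and past the gene's end. Its fold enrichment was 7.12 and 6.58 in R232fs HA lists, against 6.01 and 5.73 in R232fs TY1 lists. In Y287X it was 5.41 and 4.04 with HA, against 3.59 and 6.79 with TY1. G365R gave 4.88 and 6.40 with HA, against 5.95 and 6.86 with TY1, and WT 3.03 with HA, against 2.80 with TY1. By fold the mutant clones overlapped each other whatever the tag, and all of their 12 values were above both WT values. By percentile among the shared regions that order did not hold, since WT had 28.8 with HA, against 4.52 with TY1, and 4 mutant lists lay at 9.15 to 25.9. Over all shared regions the median fold was 4.50 in the WT HA list and 6.08 in the WT TY1 list, each the lowest of its tag. How many shared regions have all mutant folds above both WT folds was not counted. HA was below TY1 in 3 of 7 clones by fold and in 1 of 7 by rank. These were small peaks, with 18 to 40 fragments at the summit.

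The other constant BCL2 region, at 60805358 to 60805718 and 182.4 kb into the gene, had a lower HA than TY1 fold in each of the 7 clones. R232fs had folds of 3.95 and 5.01 with HA, against 6.77 and 7.03 with TY1. Y287X had 2.52 and 4.43 with HA, against 4.32 and 6.58 with TY1. G365R had 1.70 and 4.19 with HA, against 4.02 and 4.82 with TY1, and WT 2.32 with HA, against 2.48 with TY1. The same order held in the WT clone, which has no mutant protein, and at 41.2% of the 11291 regions shared by all lists. As a rank among those shared regions HA was lower in 5 of the 7 clones.

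A single BCL2 region was in 6 or more truncating lists and in no list of the other clones. The region at 60917078 to 60917362, 70.8 kb into the gene, was in all 4 R232fs lists and in both lists of the first Y287X clone. The second Y287X clone lacked it with both tags, as did the G365R and WT clones. Its fold was 6.30 and 4.78 with HA, against 8.62 and 7.50 with TY1, in R232fs, and 4.15 with HA, against 5.57 with TY1, in Y287X. It was thus found with mutant and wild-type protein alike. Presence in 6 or more truncating lists and no other was seen at 1 of 87 members and 1.38% of all regions. The region at 60798205 to 60798801 was in 9 lists, 7 of them from truncating clones, at folds from 2.81 to 6.0. By contrast, the region at 60967104 to 60967409 was in both lists of the first R232fs clone, both G365R TY1 lists and both WT lists, at folds from 3.58 to 6.27.

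Near the start of BCL2 the summit position differed between the clones. All 8 truncating lists and the second G365R TY1 list had a summit in the region at 60987560 to 60987917, 0.312 kb after the estimated start, at folds from 2.58 to 4.74. The region beside it, at 60987165 to 60987492, was singled out after its values were seen. It held summits of the first G365R HA list (fold 2.25), the first and second G365R TY1 lists (3.27 and 1.8) and the WT TY1 list (1.77), and of no truncating list. Whole peaks of 12 lists overlapped it, all but the second G365R HA list and the WT HA list. The peaks of the truncating clones therefore covered both places, with the summit in only 1 of them. The peak of the first G365R TY1 list, at 60986983 to 60987954, did so too, and the second G365R TY1 list had a summit in each.

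RefSeq gives these bases around the start of BCL2 (GRCh38.p14, chr18:63319720-63320019, minus strand, from 250 bases before to 50 after the start), shown because peaks of most lists fall near it. Capitals mark the only match to the RUNX core motif TGTGGT or TGCGGT on either strand, here on the opposite strand, beginning 12 bases after the start.
BCL2 promoter: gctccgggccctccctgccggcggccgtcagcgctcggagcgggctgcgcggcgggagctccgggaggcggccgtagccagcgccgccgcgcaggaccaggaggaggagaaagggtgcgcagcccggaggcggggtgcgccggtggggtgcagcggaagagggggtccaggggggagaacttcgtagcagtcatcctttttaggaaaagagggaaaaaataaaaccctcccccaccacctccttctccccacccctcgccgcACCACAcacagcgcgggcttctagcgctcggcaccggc
Of 35116 RefSeq promoters of the same length 19.6% hold a match to either motif. The lists are on hg19 and the sequence on GRCh38.p14, so no summit was placed on these bases.

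BCL2L1, which encodes the inhibitor BCL-XL, carried the highest fold enrichment of the family, at a pair of regions inside the gene. The region on chromosome 20 at 30272533 to 30272812, 39.3 kb from the estimated start, had folds of 12.1 and 8.03 in R232fs HA lists, against 17.9 and 14.4 in R232fs TY1 lists. In Y287X it had 9.35 and 11.1 with HA, against 11.4 and 15.5 with TY1. In G365R it had 5.60 and 11.9 with HA, against 10.2 and 11.3 with TY1, and in WT 8.69 with HA, against 9.25 with TY1. Its HA fold was below the TY1 fold in 6 of 7 clones, the second G365R clone being the exception. Ranked among the shared regions it lay between percentiles 56.6 and 88.0 of HA lists and 69.4 and 83.4 of TY1 lists, and the tags overlapped.

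Its neighbour at 30263195 to 30263468, 48.6 kb from the estimated start, had its summits within 73 bp in all 14 lists. Folds were 6.01 and 8.67 in R232fs HA lists, against 10.01 and 12.5 in R232fs TY1 lists. They were 6.91 and 11.8 with HA in Y287X, against 9.53 and 17.5 with TY1. In G365R they were 9.60 and 8.66 with HA, against 10.9 and 9.72 with TY1, and in WT 10.7 with HA, against 10.9 with TY1. HA was lower in 7 of 7 clones by fold, but by rank only in the 4 truncating clones. The percentile was 42.0 and 61.3 in R232fs HA lists and 59.5 and 72.8 in Y287X HA lists, against 84.3 and 79.1 in G365R HA lists and 85.4 in the WT HA list. By percentile the truncating HA lists were therefore all below the G365R and WT HA lists at this region, whereas by fold these sets of lists overlapped. How many of all shared regions have this separation was not counted, so it may not be particular to this region.

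The remaining BCL2L1 regions were lower in fold and less constant. The region at 30266888 to 30267416, 44.9 kb from the estimated start, was in all 8 truncating lists at folds from 3.09 to 8.59 and in the second G365R clone with HA (3.01) and TY1 (2.17). The region at 30279700 to 30280052, 32.1 kb from the start, was in 5 lists at folds from 2.84 to 4.09. Downstream, the region at 30249490 to 30249717 was in all 7 TY1 lists and in the 4 truncating HA lists, at folds from 1.72 to 3.10. At the start, 30311195 to 30311762 was in 12 lists, all but the second G365R HA list and the WT HA list, at folds from 1.58 to 3.75. A single list held 21 of the 34 BCL2L1 regions.

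RefSeq gives these bases at the first BCL2L1 start (GRCh38.p14, chr20:31723914-31724213, minus strand), shown beside the start peak of 12 lists, with the RUNX core motif match in capitals, on the opposite strand and beginning 233 bases before the start.
BCL2L1 promoter: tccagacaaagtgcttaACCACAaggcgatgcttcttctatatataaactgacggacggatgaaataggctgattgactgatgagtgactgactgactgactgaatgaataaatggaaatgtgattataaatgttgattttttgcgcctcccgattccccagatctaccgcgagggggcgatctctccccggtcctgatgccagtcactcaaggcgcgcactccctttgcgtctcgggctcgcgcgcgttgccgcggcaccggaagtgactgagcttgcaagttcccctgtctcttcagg
A further BCL2L1 promoter in the table, at chr20:31722819-31723118, holds no match.

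MCL1, a short-lived inhibitor of the same pathway, had peaks of low fold only, the highest being 3.91. Its most frequent region, on chromosome 1 at 150551822 to 150552143 and 1.01 kb from the estimated start, was in 10 lists. Its summit held 135 to 230 fragments where whole pileups were given. Folds were 2.01 and 2.38 in R232fs HA lists, against 3.21 in the second R232fs TY1 list and no summit in the first. They were 1.99 and 2.26 with HA in Y287X, against 2.38 and 2.82 with TY1. With TY1 the region was in both G365R lists (2.13 and 1.94) and in WT (1.72), and with HA it was in none of these 3 clones. Those 3 HA lists are also the shortest, and 66 of the 87 members were in none of them (75.9%, against 73.2% of all regions).

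Other MCL1 regions were in 1 to 3 lists each, all from truncating clones, as were 52.4% of all regions. With lists of equal length 1 MCL1 region was left, the most frequent one, so these others were no longer seen. The region at 150539692 to 150539936, about 13.2 kb past the start and downstream of the gene, was in the second R232fs clone with HA (3.91) and TY1 (3.27) and in the first Y287X HA list (2.74). Upstream, 150557340 to 150557692 was in the second R232fs HA list (2.40) and the second Y287X TY1 list (2.71). The G365R and WT lists had no MCL1 peak away from the start, and the first R232fs TY1 list, both G365R HA lists and the WT HA list had no peak in the window.

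BCL2L11, the BH3-only member, had no region in all 14 lists, but a region 48.3 kb from its estimated start came close. On chromosome 2 at 111926153 to 111926476, 13 lists had a summit, all but the first G365R HA list. Folds were 5.23 and 5.38 in R232fs HA lists, against 6.90 and 6.58 in R232fs TY1 lists. In Y287X they were 4.80 and 7.14 with HA, against 7.19 and 7.21 with TY1. G365R had 3.85 in its second HA list, against 5.11 and 6.63 with TY1, and WT had 2.87 with HA and 3.81 with TY1. In each of the 6 clones with both values HA had the lower fold. By percentile among all peaks of its list HA was the higher in 3 of these clones, at 78.0 and 81.4, against 70.8 and 76.1 with TY1, in R232fs and at 86.2, against 83.4 with TY1, in the second Y287X clone.

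Another intragenic BCL2L11 region, at 111914908 to 111915646 and 37.2 kb from the start, was in all 7 HA lists and 5 TY1 lists, at folds from 3.19 to 6.28. The second R232fs and the second Y287X clone had a summit there with HA (3.19 and 3.40) and not with TY1. Whole peaks of 13 lists overlapped it, all but the second R232fs TY1 list, so in the second Y287X clone only the TY1 summit lay elsewhere, at a fold of 4.45. In G365R it had 4.25 and 4.45 with HA, against 5.85 and 6.28 with TY1. This region and that of the preceding paragraph were small, at 14 to 41 and 20 to 47 fragments.

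Between these regions of BCL2L11, clones of 1 genotype differed from each other. The region at 111920555 to 111920818, 42.7 kb from the start, was in both lists of the second R232fs clone (2.75 with HA, 3.74 with TY1) and of the second Y287X clone (5.26 with HA, 12.5 with TY1), and in the WT TY1 list (3.37). The first clone of each truncating genotype lacked it with both tags. Similarly, 111925112 to 111925558 was in the second R232fs clone (5.28 with HA, 2.89 with TY1), the second Y287X clone (3.86 with HA, 4.24 with TY1) and the first R232fs HA list (3.03).

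The start of BCL2L11 had the only R232fs HA-specific region of the family. At 111878146 to 111878785, 0.462 kb from the estimated start, R232fs HA lists had folds of 1.81 and 1.96 and R232fs TY1 lists no summit. In Y287X the folds were 1.93 and 1.88 with HA, against 1.88 and 2.85 with TY1. The G365R and WT clones had it with TY1 (2.07 and 1.83 in G365R, 1.79 in WT) and not with HA, the opposite of R232fs. A whole peak of the second R232fs TY1 list did overlap the region, since 10 lists overlapped it and only the first R232fs TY1 list and the 3 HA lists of G365R and WT did not. The neighbouring region at 111880070 to 111880333, 2.21 kb from the start, was in 10 lists at folds from 1.73 to 2.87 and absent from the first R232fs TY1 list and the same 3 HA lists.

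RefSeq gives these bases at the BCL2L11 start (GRCh38.p14, chr2:111120664-111120963, plus strand), shown because the tags differed there in R232fs and G365R. No RUNX core motif of either spelling is in this window.
BCL2L11 promoter: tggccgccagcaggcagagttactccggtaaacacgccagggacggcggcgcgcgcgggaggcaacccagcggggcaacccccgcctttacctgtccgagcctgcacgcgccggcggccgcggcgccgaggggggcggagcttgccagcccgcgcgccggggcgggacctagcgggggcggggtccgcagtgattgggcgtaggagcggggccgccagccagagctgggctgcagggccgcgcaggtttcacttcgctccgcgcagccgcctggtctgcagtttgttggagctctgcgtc
MCL1 had no promoter to print.

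BAX, the effector, had its only constant regions at its start and past its end. At the start, on chromosome 19 at 49457983 to 49458233, summits of all 14 lists lay within 50 bp. Folds were 2.99 and 3.93 in R232fs HA lists, against 2.76 and 5.90 in R232fs TY1 lists. In Y287X they were 2.08 and 3.01 with HA, against 3.32 and 3.91 with TY1. In G365R they were 1.88 and 1.58 with HA, against 3.34 and 2.52 with TY1, and in WT 1.86 with HA, against 2.97 with TY1. HA was lower in 6 of 7 clones by fold and by rank, the first R232fs clone being the exception. Its percentile among shared regions was at most 9.61 in HA lists and 19.6 in TY1 lists, so its fold was among the lower ones in each list.

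RefSeq gives these bases at the BAX start (GRCh38.p14, chr19:48954625-48954924, plus strand), shown because it is the only start of the family with a peak in all 14 lists. The match in capitals begins 99 bases before the start.
BAX promoter: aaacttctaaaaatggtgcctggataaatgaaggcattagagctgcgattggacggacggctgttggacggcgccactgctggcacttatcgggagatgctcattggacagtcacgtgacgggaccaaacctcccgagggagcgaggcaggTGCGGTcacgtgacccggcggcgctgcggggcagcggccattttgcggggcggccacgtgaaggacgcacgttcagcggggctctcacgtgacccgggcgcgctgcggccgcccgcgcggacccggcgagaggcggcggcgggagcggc
Matches to the motif were thus present in 3 of the 4 genes with a printed start. BCL2L1 was counted by its first promoter, since its further promoter holds no match. Per promoter of this length the share over RefSeq was 19.6%, and enrichment was not tested. Between the start and the downstream region, 49463200 to 49463440 was in both lists of the second R232fs clone (2.80 with HA, 2.25 with TY1) and of the second Y287X clone (3.03 with HA, 3.23 with TY1) only. The other 3 BAX regions were in 1 or 2 lists each.

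The downstream BAX region, at 49468531 to 49469043 and 10.7 kb after the estimated BAX start, had a tag difference of opposite sign in truncating clones and in the rest. Folds were 6.27 and 8.56 in R232fs HA lists, against 3.29 and 7.02 in R232fs TY1 lists. In Y287X they were 3.77 and 4.84 with HA, against 3.55 and 4.77 with TY1. In G365R they were 2.31 and 2.08 with HA, against 4.23 and 3.26 with TY1, and in WT 2.04 with HA, against 3.56 with TY1. HA was thus above TY1 in all 4 truncating clones and below it in all 3 G365R and WT clones, an order found by fold at 2.4% and by rank at 8.34% of the shared regions. Summits in this region spread over 312 bp, against 50 to 160 bp in the other member regions in all lists. The WT HA list had a further summit beside it, at 49469133 to 49469333 (fold 1.67). Whether the lists share 1 summit there was not tested. The next protein-coding gene after BAX in the GRCh38.p14 gene table is FTL, which encodes the ferritin light chain. The start of FTL was not located in hg19, so whether the region lies at that start was not tested. Which of the genes the region belongs to was not tested either, and its name here gives only its position relative to BAX.

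Ranks within a list gave the same order at the downstream BAX region. Its percentile among the shared regions was 44.2 and 60.4 in R232fs HA lists, against 9.05 and 29.7 in R232fs TY1 lists. In Y287X it was 24.2 and 23.7 with HA, against 8.78 and 8.90 with TY1. In G365R it was 10.9 and 8.06 with HA, against 19.6 and 13.2 with TY1, and in WT 8.75 with HA, against 16.8 with TY1. The 4 truncating HA values were above those of the other 3 HA lists, and each was above the TY1 value of its own clone. The share of all shared regions with such a separation of the HA lists was not counted. Summit pileups were 462 and 560 fragments in R232fs HA lists, against 235 and 451 in R232fs TY1 lists, over local backgrounds of 72.8 and 64.5, against 70.6 and 63.4.

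**Figure D3:**
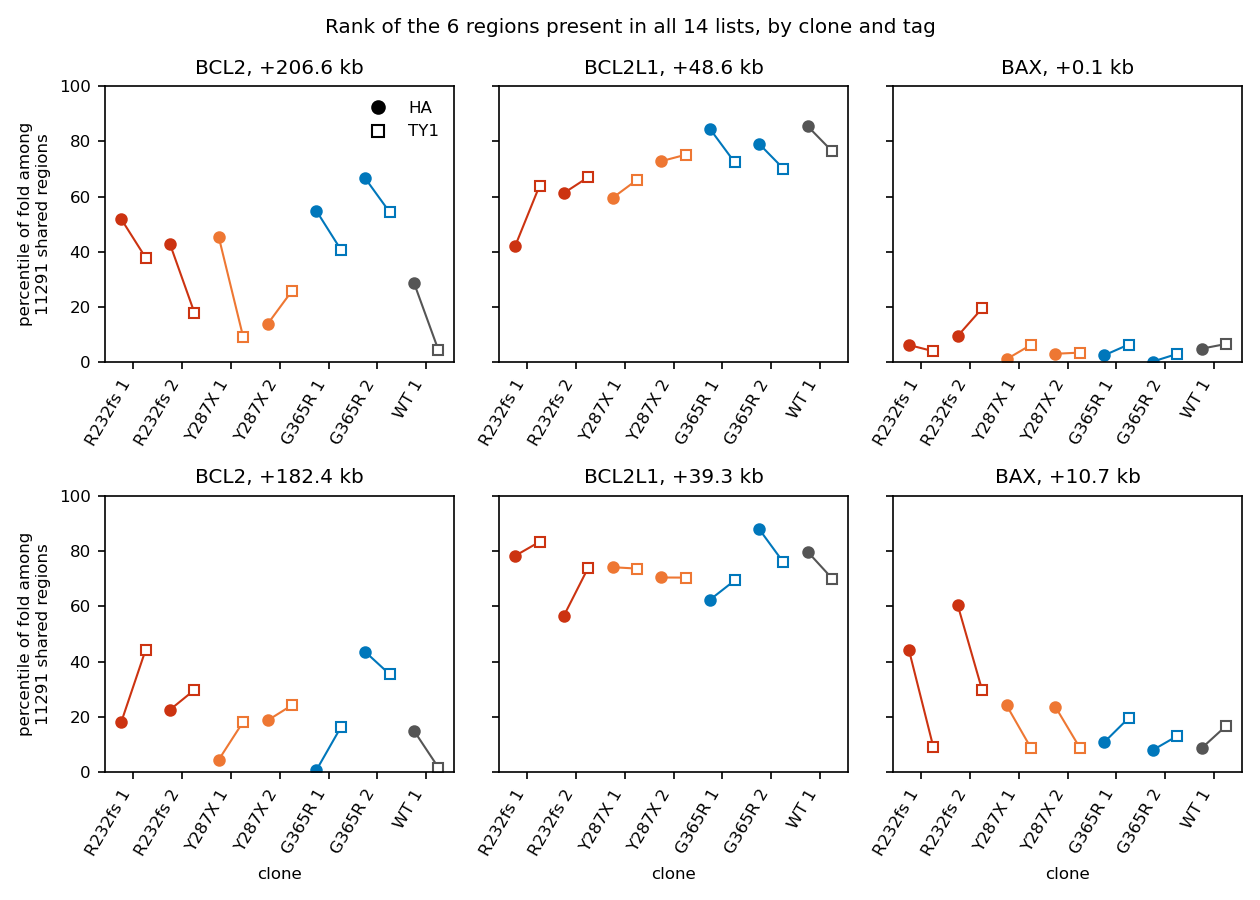
Percentile of fold among the 11291 shared regions (vertical axis) for the 6 family regions in all 14 lists, by clone (horizontal axis), with HA as filled circles and TY1 as open squares joined within a clone; each point is 1 list. At the downstream BAX region (+10.7 kb) the HA point is above the TY1 point in the 4 truncating clones and below it in the other 3.

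These 6 regions were compared in a fit over all 11291 shared regions, on normal scores of the fold's rank within a list (1 unit is 1 SD of a list's scores), with limma and Benjamini-Hochberg adjustment over all regions. On ranks of fold in all clones the downstream BAX region was the only member called. Its HA score was 0.99 ± 0.27 (SE) higher in truncating than in G365R clones (limma adjusted p = 0.0461, n = 4 and 2 lists), 1 of 6 members where 9.53% of all shared regions were called and 5.66% called higher. With a random clone effect its limma adjusted p was 0.0502, where 8.74% of regions were called. Leaving out the first or the second G365R clone gave 0.272 or 0.322 in the unpaired fit, and leaving out a Y287X clone 0.101 or 0.131. TY1 scores differed by -0.16 ± 0.27 (limma adjusted p = 0.746), and no member was called between TY1 lists, where 4.57% of shared regions were. With ranks of −log10 p the BCL2L1 region at 30263195 was called between TY1 lists, with a difference of -0.66 ± 0.19 (limma adjusted p = 0.0238, and 0.0245 with the clone effect), where 24.3% of regions were called. The strongest peaks of truncating lists reached many times the height of those of G365R lists, as given above, so a difference between these genotypes and one between kinds of list cannot be told apart.

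Within genotypes the unpaired fit called none of the 6 members, nor any other region, for HA minus TY1. In R232fs the downstream BAX region differed by 0.99 ± 0.31 (limma adjusted p = 0.269), where 0.0% of regions were called and 1368 had an unadjusted p under 0.05, 1 of them this member. HA and TY1 lists of a number come from the same clone, and with clones paired the same difference had an SE of 0.18 and a limma adjusted p of 0.0101, 1 of 6 members where 21.7% of regions were called and 10.4% called higher. Without the first R232fs clone that adjusted p was 0.0822. In Y287X the paired difference was 0.64 ± 0.18 (limma adjusted p = 0.0966, 0.815% of regions called), and in G365R -0.33 ± 0.18 (limma adjusted p = 0.31, 4.1% called). Paired and with ranks of −log10 p, where 22% of regions were called, the G365R difference was called at this region (-0.69 ± 0.20, limma adjusted p = 0.0168) and at the BAX start (-1.20 ± 0.28, limma adjusted p = 0.00425). The unpaired Y287X and G365R fits had 463 and 590 regions with an unadjusted p under 0.05 and no member among them.

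The test of the difference itself, HA minus TY1 in truncating less that in G365R clones, gave 1.15 ± 0.22 at the downstream BAX region with clones paired (limma adjusted p = 0.0138), where 17.1% of regions were called and 8.57% called higher. Without pairing the SE was 0.38 and the adjusted p 0.336, 0.0% of regions were called, and 1177 had an unadjusted p under 0.05. The paired adjusted p was 0.104 and 0.0698 without the first and second G365R clone. On ranks of fold in all clones the other 5 members missed the threshold in this comparison, paired or not. The BAX start was called paired and with ranks of −log10 p (1.03 ± 0.34, limma adjusted p = 0.0294), where 28.4% of regions were. The BCL2L1 region at 30263195, with a paired limma adjusted p of 0.0596, was called without the second R232fs clone (-0.69 ± 0.18, limma adjusted p = 0.0411), where 14.2% of regions were.

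The BCL2L1 region at 30263195 to 30263468 came next among HA lists. Its score was -0.67 ± 0.22 in truncating less G365R clones (limma adjusted p = 0.0731). It passed with ranks of −log10 p (limma adjusted p = 0.00129, 39.6% of regions called) and without the second R232fs clone (0.0445, 10.6% called), and over all alternatives without pairing the adjusted p ran from 0.00129 to 0.428. Its neighbour at 30272533 to 30272812 differed by -0.21 ± 0.27 (limma adjusted p = 0.625), and the start region of BAX by 0.59 ± 0.33 (limma adjusted p = 0.261). With ranks of −log10 p the BAX start was called too, at 1.64 ± 0.39 (limma adjusted p = 0.00646), while over regions in at least 10 lists its difference was -0.29 ± 0.27 (limma adjusted p = 0.541). The constant BCL2 regions differed by -0.61 ± 0.33 and 0.23 ± 0.51 (limma adjusted p = 0.239 and 0.786).

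Binding near the starts of the 5 genes was weak in fold but not in fragments. The 8 regions within 1.5 kb of an estimated start held 61 peaks with a median fold of 2.30 (1.58 to 5.90), at a median percentile of 13.0 within their lists. The other 79 regions held 271 peaks, with the stronger taken where 1 list had 2 summits in a region, with a median fold of 3.59 (1.66 to 17.9) and a median percentile of 46.0. Near-start peaks had the lower median in 13 of 14 lists, the exception being the second R232fs TY1 list with 4.24 near starts and 3.64 elsewhere. All 5 genes had a start peak in 9 lists, while the second G365R HA list and the WT HA list had one at BAX alone.

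In the 12 lists with whole pileups, near-start peaks had a median of 215 fragments at the summit over a local background of 88.9. Peaks elsewhere had a median of 29 fragments over a background of 6.07. The low fold at starts thus went with a high background as the caller estimated it, in addition to many fragments. At the start of BCL2L1 the summit held 121 to 529 fragments over a background of 76.3 to 174.9. The constant intragenic BCL2L1 region at 30272533 to 30272812 had 75 to 217 fragments over 8.99 to 16.0. Fold and pileup order these 2 places differently.

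**Figure D4:**
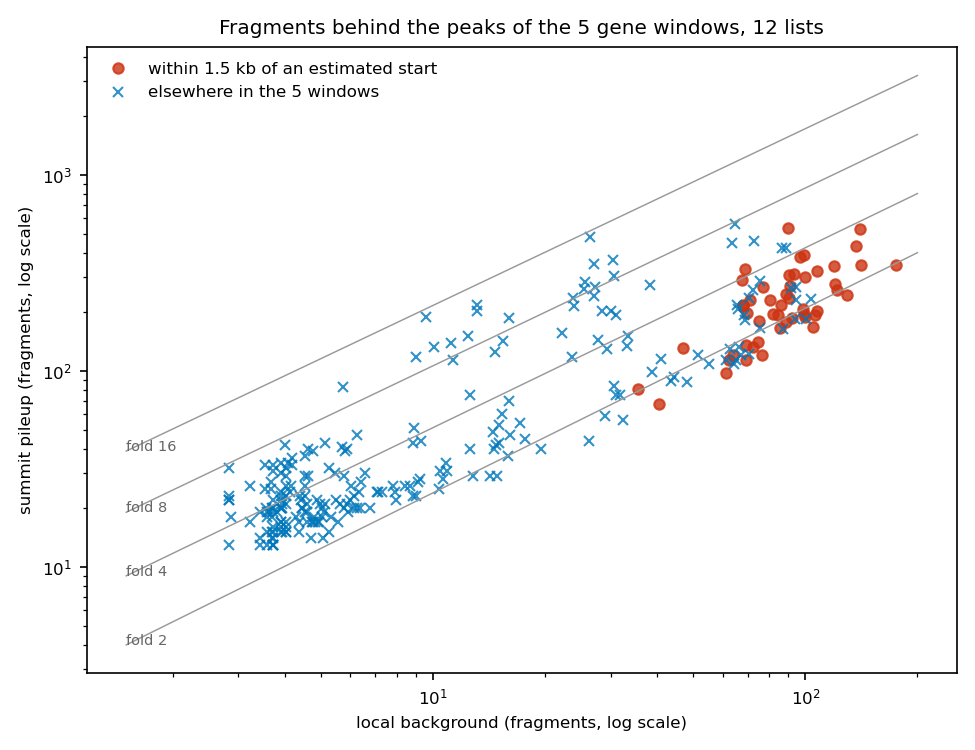
Summit pileup against local background, in fragments on log scales, for the 284 peaks of the 5 windows in the 12 lists with whole pileups, with peaks within 1.5 kb of an estimated gene start as red circles and others as blue crosses; grey lines join points of equal fold. Near-start peaks lie at the right, over backgrounds of 35.5 to 174.9 fragments, and most other peaks at the lower left.

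High background was also found more than 1.5 kb from the estimated starts of the named genes. Those starts are good to about 1 kb, and the starts of other genes, such as FTL, were not located in hg19. Whether the high-background regions outside that distance lie at a gene start was therefore not tested. Of 82 regions with a whole pileup, 13 had a median background over 40 fragments, among them the downstream BAX region (68.1), the downstream BCL2L1 region at 30249490 to 30249717 (67.1) and the BCL2L11 region 2.21 kb from the start (94.1). At the start of BAX the summit held 207 to 534 fragments in truncating lists, against 97 to 218 in the G365R and WT lists with whole pileups. Which control the caller used for this background is not given in the sources used here.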

How the data were processed

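Chromatin immunoprecipitation with sequencing located RUNX1 in 14 HA or TY1 libraries of Jurkat clones. The 7 control samples were not analysed here. The deposited files are narrowPeak lists, each of a single library. The submitters' processing notes name MACS2 2.2.7.1, Bowtie2 2.2.9, CASAVA 1.8 and genome build hg19. The caller's settings were not given in the sources used here. Each peak in the deposited lists has a fold enrichment (a linear ratio over the caller's local background), a −log10 p-value and −log10 q-value, a score, and the offset of its summit in bp. These values are the authors'. The lowest −log10 q of a list was 1.30 to 1.32. Peaks outside chromosomes 1 to 22 and X (1.41% to 2.17%) were left out.

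Windows of 100 bp on each side of summits were merged over all lists when they overlapped by 1 bp or more. Gene windows are those given for these genes, about 10 kb wider than the gene on each side. No hg19 annotation was used here, so each gene start was estimated as the window's edge less 10 kb and is good to about 1 kb. "Near start" means within 1.5 kb. The strand of MCL1 was taken from general knowledge, those of the others from RefSeq. Pileup and background were solved from fold and −log10 p under a Poisson tail with a pseudocount of 1. In 12 lists 100% of 200 checked peaks gave whole numbers, against 7.5% in the first G365R TY1 list and 8.5% in the WT TY1 list. Intervals for counting error were not computed, since a list holds no depth.

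Ranks of fold over the 11291 regions in all lists were turned into normal scores and compared with limma 3.58.1 (R 4.3.3; trend, Benjamini-Hochberg over all regions, threshold 0.05) in 8 groups of genotype and tag, with 6 residual degrees of freedom. The single WT lists are taken to have the spread of the other groups. The clone names of the deposited lists show that HA and TY1 lists of a number share a clone. Across regions, their deviations from group means had an r of 0.792 (R232fs), 0.702 (Y287X) and 0.503 (G365R), so that the numbers pair the samples. A fit with clone as a fixed term (3 residual degrees of freedom), or as a random effect between clones (correlation 0.735), stands beside the main one where it changes a call. The computation was tested on simulated data. Unpaired p-values measure the spread between these clones, and that fit takes the HA and TY1 lists of a clone as independent. With clone as a fixed term they measure how the HA minus TY1 difference varies from clone to clone.

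Regions were named per gene as all in 14 lists, then those of 1 tag in 2 or more genotypes, then those in most lists, up to 6. The members, windows and lists were chosen with earlier results of these data known. Promoters are RefSeq sequences on GRCh38.p14 and were found for 4 of the 5 genes. Python 3.11.15, numpy 2.4.6, pandas 2.3.3, scipy 1.17.1 and matplotlib 3.10.9 were used.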

Additional observations from a re-analysis of the deposited data

Results flagged for a closer look

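The downstream BAX region on chromosome 19 at 49468531 to 49469043 had a difference between genotypes in the effect of the tag. HA minus TY1 was higher in truncating than in G365R clones by 1.15 score units with clones paired (limma adjusted p = 0.0138). HA was above TY1 in 4 of 4 truncating clones and in 0 of 2 G365R clones. Without pairing the limma adjusted p was 0.336, and with pairing but without the first or second G365R clone it was 0.104 or 0.0698. The peak calls there were 935 to 1530 bp wide in the mutant clones. Whether the kind of list has a part in it was not tested.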

How the results depend on the processing

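Counts below are over all shared regions, for HA minus TY1 in R232fs, Y287X and G365R, then truncating minus G365R in HA lists, in TY1 lists, and in HA minus TY1. The unpaired fit called 0, 0, 0, 1076, 516 and 0 regions (unadjusted p under 0.05 in limma: 1368, 463 and 590 for the first 3, 1177 for the last). With the replicate block (clones paired) the counts were 2445, 92, 463, 987, 383 and 1932. Ranks of −log10 p gave 10, 0, 47, 4470, 2740 and 282, and with the replicate block 2511, 704, 2480, 4498, 2902 and 3211. Regions in at least 10 lists gave 17, 3, 8, 1149, 233 and 3, and centred log2 fold gave 1 in R232fs. Leaving out 1 clone in turn gave 0 for the comparisons within genotypes and for HA minus TY1 between them, 1 (without the second G365R clone) to 2667 (without the first R232fs clone) in HA lists and 2 (without either G365R clone) to 2639 (without the first R232fs clone) in TY1 lists. With the replicate block, leaving out 1 clone gave 374 to 2464, 0 to 279, 1 to 485, 0 to 2631, 2 to 2544 and 42 to 1944. Fits that combine the replicate block with ranks of −log10 p or with a clone left out were chosen after seeing the data. Causes were not tested.

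In R232fs, between HA lists and between genotypes in HA minus TY1, the downstream BAX region kept its direction under all alternatives run. With regions in at least 10 lists, 5 uncalled differences changed sign. In G365R HA minus TY1 was 0.0613 at that region and 0.31 at the BAX start, the BAX start differed by -0.29 in HA lists and -0.55 in HA minus TY1 between genotypes, and the BCL2L1 region at 30263195 by 0.0602 in TY1 lists. Ranks of −log10 p added the member calls given in the report. Its difference between truncating and G365R HA lists lost its call with centred log2 fold (0.78, limma adjusted p = 0.058), regions in at least 10 lists (0.53, limma adjusted p = 0.306), windows of 250 bp (1.03, limma adjusted p = 0.0506), the replicate block (limma adjusted p = 0.0502), and without either G365R or either Y287X clone, over a range of adjusted p from 0.00059 to 0.322 without pairing and 0.000294 to 0.381 with it. The paired R232fs difference had adjusted p from 0.00037 to 0.0822 and the paired difference between genotypes from 0.000123 to 0.104. The 87 member regions became 30 with lists of equal length and 51 at a −log10 q of 5 or more, and 74 to 86 with 1 clone or list left out. Of the 6 regions in all lists 3 were left at a −log10 q of 5 or more, and 6 to 7 with 1 left out. Depth is unknown, so absence from a list means only that no peak was called.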

Other observations

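The 43 member regions found in a single list were unevenly spread over the lists. The R232fs HA lists held 13 and 9 of them and the R232fs TY1 lists 0 and 0. The Y287X HA lists held 4 and 1 and the Y287X TY1 lists 1 and 4, the G365R HA lists 0 and 2 and the G365R TY1 lists 2 and 2, and the WT clone 3 with HA and 2 with TY1. BCL2L1 had 21 of them, BCL2 13, BCL2L11 4, MCL1 3 and BAX 2. Their median −log10 q was 3.91, against 11.5 for the other member peaks, and their folds ran from 1.66 to 4.51. With lists of equal length 3 of the 43 were left. Whole peaks of another list overlapped 14 of them, so that for these the summit, and not the peak, was in a single list.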
